A study of Mus musculus with 2 samples.

Results

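Intronic open-chromatin sites of modest strength were examined in the whole testis at 14 days of age. The animals were male mice of the strain B6CASTF1/J, the hybrid offspring of C57BL/6J and the castaneus strain CAST/EiJ. Open chromatin was mapped by DNase-seq, which sequences the ends left where DNase I has cut accessible DNA in nuclei, in 2 libraries that form a single group. The label of replicate 1 speaks of 3 males and that of replicate 2 of no number, and 1 donor label covers both, so part of their spread may be technical. No treatment, genotype or age was contrasted, and all values below are descriptions with no test. Members were chosen by their measured values. A peak of replicate 1 (101172 peaks) had to overlap a peak of replicate 2 (117359 peaks) by 1 bp, to have a signal value below 3 in both libraries, and to have its midpoint inside a protein-coding gene of GENCODE vM21, in no annotated exon and over 1000 bp from every start of a protein-coding gene. The signal value is the authors' own figure for a peak, and the sources used here do not define its unit. Of 83530 shared peaks 22381 lay in introns by these terms and 22103 were members, which is 26.5% of the shared peaks. The ceiling removed few, because 176 intronic shared peaks stood at or above 3 in both libraries and 102 in 1 library only. The members nearest the ceiling had 2.86, 2.23 and 2.70 in replicate 1 with 2.98, 2.99 and 2.99 in replicate 2, and the nearest peaks outside it had 3.00, 3.00 and 2.46 in replicate 1 with 2.34, 1.81 and 3.00 in replicate 2.

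An intron is the part of a transcript that splicing removes, and many enhancers, the switches that raise transcription from a distance, lie in introns, of their target gene or of a neighbour. Enhancers and insulators become sensitive to DNase I where transcription factors displace nucleosomes, and a bound factor can shield a short stretch within the open site, which is seen as a footprint. Testis at this age holds Sertoli cells, which nurse the germ cells, together with spermatogonia, the first spermatocytes in meiotic prophase, and interstitial and vascular cells. In whole tissue a weak site in every cell and a strong site in few cells cannot be told apart.

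The sequences of 6 members are printed, each with a match to a consensus in or near a footprint. Each was, among members up to 300 bp wide, the one with the highest mean value that had a match to the consensus of the factor, in or within 5 bp of a footprint that both libraries shared. They are the plus strand of mm10, read from GRCm38.p6 of RefSeq, with the match in capitals. The CTCF site, for the insulator protein that halts cohesin at the anchors of chromatin loops, lay at chr11:70020821-70021040 in intron 1 of 19 of Dlg4, a scaffold gene of synapses. The REST site, for the repressor of neuronal genes, lay at chr2:70559601-70559800 in Gad1, which makes the transmitter GABA, upstream of the start of its representative transcript. The RFX site, for the regulators of cilia genes, lay at chr10:79803761-79803960 in intron 1 of 8 of Palm. The NR5A1 site, for the regulator of steroid hormone synthesis, lay at chr8:90869601-90869880 in intron 2 of 39 of Chd9, a chromatin remodeller. The DMRT site, for the family of the testis factor DMRT1, lay at chr17:25063921-25064100 in intron 18 of 29 of Ift140, a gene of ciliary transport, and also within Tmem204. The GATA site, for a family active in Sertoli and Leydig cells, lay at chr3:107982841-107983020 in the last of 7 introns of Gstm2. Most of this GATA match lay outside the footprint.
CTCF site in Dlg4: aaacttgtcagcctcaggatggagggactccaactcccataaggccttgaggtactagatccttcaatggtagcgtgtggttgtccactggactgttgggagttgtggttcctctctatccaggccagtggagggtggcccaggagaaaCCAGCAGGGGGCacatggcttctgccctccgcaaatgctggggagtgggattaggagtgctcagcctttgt
REST site in Gad1: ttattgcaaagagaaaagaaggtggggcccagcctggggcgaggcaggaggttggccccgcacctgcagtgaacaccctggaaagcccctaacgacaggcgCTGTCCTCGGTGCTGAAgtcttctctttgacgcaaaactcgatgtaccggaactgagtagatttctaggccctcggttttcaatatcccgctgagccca
RFX site in Palm: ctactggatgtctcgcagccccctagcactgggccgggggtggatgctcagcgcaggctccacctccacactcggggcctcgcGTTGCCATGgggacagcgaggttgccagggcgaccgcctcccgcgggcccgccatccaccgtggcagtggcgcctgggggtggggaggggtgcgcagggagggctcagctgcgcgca
NR5A1 site in Chd9: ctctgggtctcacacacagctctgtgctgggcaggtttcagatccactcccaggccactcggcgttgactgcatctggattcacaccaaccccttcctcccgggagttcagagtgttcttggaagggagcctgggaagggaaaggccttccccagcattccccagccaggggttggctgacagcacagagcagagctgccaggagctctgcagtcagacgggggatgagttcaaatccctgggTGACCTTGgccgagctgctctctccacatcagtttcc
DMRT site in Ift140: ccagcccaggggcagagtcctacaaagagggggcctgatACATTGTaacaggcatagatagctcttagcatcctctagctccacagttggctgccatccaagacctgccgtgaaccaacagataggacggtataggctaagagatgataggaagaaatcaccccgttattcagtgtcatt
GATA site in Gstm2: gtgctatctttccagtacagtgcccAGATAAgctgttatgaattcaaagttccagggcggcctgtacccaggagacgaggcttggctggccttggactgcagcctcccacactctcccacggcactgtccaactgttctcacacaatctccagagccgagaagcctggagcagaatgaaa
The CTCF site had signal values of 2.70 and 2.99 in replicates 1 and 2, and the REST site 1.60 and 1.46. The RFX site had 2.05 and 1.79, and the NR5A1 site 2.69 and 2.79. The DMRT site had 2.01 and 2.71, and the GATA site 2.49 and 2.77. The consensus of CTCF and that of REST are named without their letters, and the others searched were GTTGCCATG for RFX, CAAGGTCA for NR5A1, ACATTGT for DMRT and AGATAA for GATA, each on both strands.

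Members were short, weak and alike in the 2 libraries. Their median signal value was 0.527 in replicate 1 (middle 50% of members from 0.376 to 0.79) and 0.566 in replicate 2 (0.404 to 0.83), and 79.8% stayed below 1 in both. The lowest values were 0.0753 and 0.0717 and the highest 2.97 and 2.99. Across the members the log2 values of the libraries had a Pearson r of 0.881 (Spearman rho 0.865), given as a description, since the points share their libraries and were chosen to be peaks in both. In 99.3% of members the 2 values lay within 2-fold of each other, and the median of replicate 2 over replicate 1 was 1.07. The median width was 182 and 200 bp. Shared peaks between genes with values below 3 (28295 peaks) had nearly the same medians, 0.516 and 0.54, while promoter peaks below 3 (17982 peaks) had 0.769 and 0.759.

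By sequence the members stood with the peaks between genes and apart from promoters. Their median GC content was 52.0%, against 51.7% for peaks between genes below 3 and 62.2% for promoter peaks below 3. The median ratio of observed to expected CpG was 0.229 in members, against 0.256 between genes and 0.626 at promoters. The 176 intronic shared peaks at or above 3, which the rule left out, were again GC-rich, with 62.0% GC and a CpG ratio of 0.565. Repeats made up at least 50% of the sequence in 5.52% of members. In the shorter peak lists of the authors, 53.3% of members were found in both libraries and 22.3% in neither, against 63.2% and 17.7% of all shared peaks and 55.8% and 21.3% of peaks between genes below 3.

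**Figure D1:**
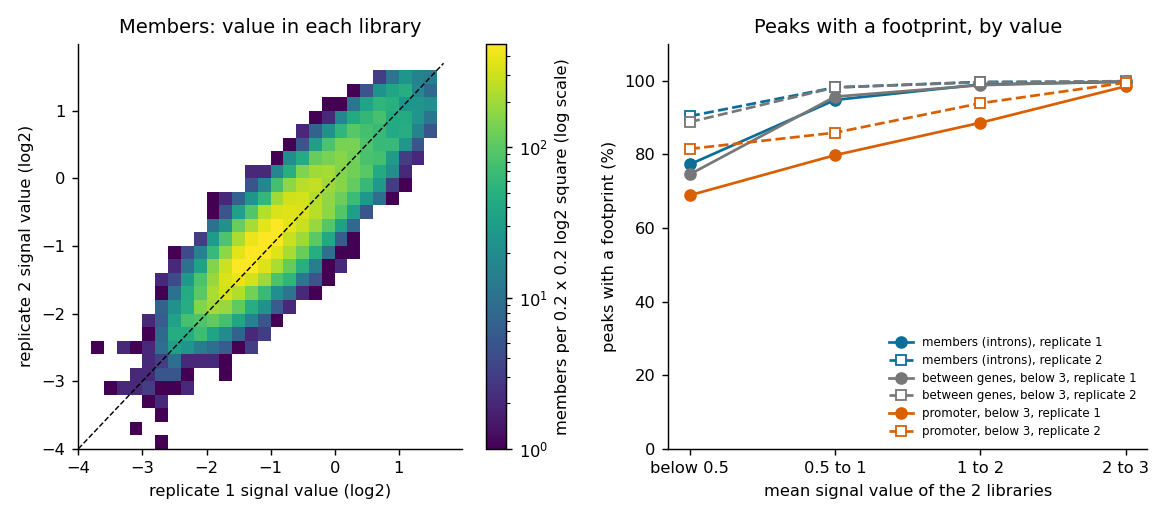
Left, signal value of the 22103 members in replicate 1 (horizontal axis, log2) and replicate 2 (vertical axis, log2), with the number of members per square as colour and equal values as the dashed line. Right, percent of peaks with a footprint by the mean signal value of the libraries, for members, shared peaks between genes and promoter peaks, all below 3 in both libraries; members rise from 77.3% to 99.7% in replicate 1, and the promoter lines lie below those of members in each bin.

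Of 21938 protein-coding genes 7232 (33.0%) held a member, and few were dense in them. Among the 8142 genes with at least 20 kb of eligible intron, meaning sequence in which a midpoint could count, 5343 (65.6%) held a member. The eligible sequence came to 881.5 Mb, which gives 25.1 members per Mb. A single member was found in 3149 genes, 5 or more in 1352 genes and 10 or more in 396. Of the pairs of member and gene 50% fell to 1155 genes, 16% of the hosts. Per 100 kb of eligible intron, the median gene of at least 20 kb had 1.95 members, the 90th percentile stood at 7.5 and the 99th at 15.2. Genes of 20 to 50 kb held 3.01 members per 100 kb in all, those of 50 to 100 kb 3.01, those of 100 to 200 kb 2.82 and those over 200 kb 1.87. An open promoter, meaning a peak within 1000 bp of a start of the gene in both libraries, was found at 88.7% of hosts of at least 20 kb (4741 genes), against 75.3% of the 2799 such genes with no member.

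The highest density stood at Sfi1, a centrosome gene on chromosome 11, with 20 members in 37.4 kb of eligible intron, or 53.5 per 100 kb. Their signal values ran from 0.489 over a median of 1.30 to 2.32 in replicate 1, and from 0.359 over 1.26 to 2.27 in replicate 2. All 20 held a footprint shared by the libraries and none lay in the first intron. A 31-base word that occurs once in the genome allows a read to be placed. In 4 of the 20 members fewer than 50% of the words were unique, with 17.1% as the lowest, against 214 (0.97%) of the 22059 members in which the words were counted. The sources used here do not say how reads from repeated sequence were placed, so the values of those 4 are uncertain. Copies that the reference genome lacks would not show in this count. It therefore does not clear the other members of Sfi1 or the density of 53.5 per 100 kb.

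After Sfi1 came genes of signalling and of transcription. Nfic, a transcription factor of the nuclear factor I family, had 15 members (32.9 per 100 kb), with median values of 1.11 and 1.01. Plxna1, a semaphorin receptor, had 8 (31.9 per 100 kb), all of them with footprints in both libraries, and medians of 1.26 and 1.35. Zc3h4, a gene that limits non-coding transcription, had 7 (29.1 per 100 kb), 5 of them in its first intron. In each of these 3 genes all words of all members were unique.

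Another 7 genes of the first 12 held 6 to 11 members each, at 23.1 to 27.5 per 100 kb. They were Car5a, a mitochondrial carbonic anhydrase (6 members), Dtx4, a regulator of Notch signalling (8), Kcnh2, a potassium channel (6), and Fam222a (11, of which 8 lay in the first intron). Pdpn, the membrane glycoprotein podoplanin, had 7, all in its first intron, with medians of 0.430 and 0.536, whereas Adora1, an adenosine receptor, had 7 and none in its first intron, with medians of 0.849 and 1.28. Fam102a had 6, of which 5 lay in its first intron. All 12 genes have under 50 kb of eligible intron. With at least 50 kb the order began with Igfbp7, a secreted binding protein of growth factors (17.6 per 100 kb), Bicra (16.8) and Sulf2 (16.6), and Rxfp2, the receptor for the testicular hormone INSL3, was among its first 12 (14.8).

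By number, very long gene models led. Gm20388, a model with 3770.4 kb of eligible intron on chromosome 8, held 263 members, of which 260 lay in its first intron. Fgfr2, a receptor for fibroblast growth factors, held 105, but 100 of them lay outside the introns of its representative transcript, in a model with 2608.8 kb of eligible intron. Camta1, a calcium-responsive transcription factor, held 53, the phosphodiesterase gene Pde4d 43, the transcription factor gene Tshz2 42 and Nav2 41, at 2.93 to 9.83 per 100 kb. A member in 2 or more overlapping genes, as 563 were, was counted for each.

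Among the 12 lists of genes followed, that of meiotic prophase had the lowest density of members. Most genes of this list build the synaptonemal complex, hold sister chromatids together or serve recombination. Of the 20 with at least 20 kb, 4 held a member, against 65.6% of all such genes, and the list had 1.04 members per 100 kb against 2.52 over all genes. These 20 genes had a median of 43.9 kb of eligible intron, against 51.4 kb for all genes of at least 20 kb. Of all genes of 20 to 50 kb 49.1% held a member, with 3.01 per 100 kb in all and a median of 0. Of all genes of 50 to 100 kb 72.4% did, with a median of 2.02. The median of the 20 meiotic genes was also 0, so that median does not set the list apart from genes of 20 to 50 kb. An open promoter in both libraries was found at 29 of the 30 meiotic genes, against 15076 of all 21938 genes. Tex14, which forms the bridges between germ cells, held 12 of the list's 16 members (8.82 per 100 kb), and without it the list had 0.286 per 100 kb. Its members had values from 0.425 over a median of 1.41 to 2.86 in replicate 1 and from 0.408 over 1.25 to 2.98 in replicate 2. In its members a median of 74.2% of the 31-base words were unique, and 2 were below 50%, so these values share the uncertainty of Sfi1. Brdt, a reader of acetylated histones in the germ line, had no member in 48.1 kb, while its promoter peak reached 6.78 and 7.67. Genes were assigned to lists by textbook knowledge of where they act.

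Of the 10 spermatogonial genes with at least 20 kb, 7 held a member, a share near the 65.6% of all such genes. The whole list had 4.88 members per 100 kb, against 2.52 over all genes. Among genes of at least 20 kb the median of the list was 3.64, against 1.95. Etv5, a factor for the self-renewal of spermatogonial stem cells, had 4 members in later introns, with medians of 0.409 and 0.595 and a promoter peak of 17.8 and 20.3. Nanos3, an RNA-binding protein of early germ cells, had 3 in only 8.1 kb, at 1.23 and 1.10 by their medians, all outside the introns of its representative transcript. The germ-cell helicase gene Ddx4 had none in 50.2 kb.

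The 5 lists of somatic testis cells stood above the 2.52 per 100 kb of all genes. That figure includes very long genes, and genes of 20 to 50 kb and of 50 to 100 kb each had 3.01 per 100 kb. The Leydig list, given below, did not reach 3.01. Peritubular myoid genes, of the contractile cells that wrap the tubules, had 6.13 members per 100 kb, with a member in 4 of 5 genes of at least 20 kb. Such counts, here and in the lists below, stand against 65.6% of all genes of at least 20 kb, and against 72.4% of those of 50 to 100 kb, and on so few genes they set no list apart. In this list Synpo2, a protein of actin bundles, had 14, of which 10 were in its first intron, with medians of 0.489 and 0.598, Myh11, smooth muscle myosin, had 5, and Ednrb, an endothelin receptor, had none. Interstitial stroma genes had 4.99 per 100 kb (7 of 8 genes), led by Gli2, an effector of hedgehog signalling, with 14 members, and the growth factor gene Igf1, with 3, while Fn1 had none in 45.5 kb. Sertoli cell genes had 4.83 per 100 kb (6 of 7 genes). Trf, the transferrin that supplies iron to germ cells, had 3 members with medians of 0.763 and 0.985, and Espn, an actin bundler of Sertoli cell junctions, had 3 with 1.42 and 1.65. Wt1, a zinc-finger factor that Sertoli cells need, had none in 37.7 kb although its promoter peak reached 3.26 and 3.53. Endothelial genes had 3.59 per 100 kb (9 of 9 genes), or 2.73 without Pecam1. Leydig cell genes, of the androgen-making cells, had 2.84 (4 of 4), or 2.35 without Cyp11a1. Cyp11a1, the enzyme that cuts the side chain of cholesterol, had 2 of the 10 members of the Leydig list. Pecam1, an adhesion molecule of blood vessels, had 10 members at 0.683 and 0.659 by their medians but no promoter peak in either library, and Erg, a vascular transcription factor, had 8.

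Lists of cell types that are rare in testis or belong to other tissues were not empty. Leukocyte genes had 3.15 per 100 kb (6 of 8 genes), neuronal genes 1.73 (12 of 13) and liver genes 3.37 (4 of 4), and an open promoter was found at 2 of the 12 genes of the leukocyte list, 14 of the 15 of the neuronal list and 2 of the 12 of the liver list, against 15076 of all 21938 genes. The 9 members counted for Cx3cr1, the fractalkine receptor of macrophages, all lay outside the introns of its representative transcript, and its promoter had no peak. Without this gene the leukocyte list had 2.28 per 100 kb. Itgam, an integrin of macrophages, had 3 members at 0.409 and 0.732 by their medians, and Adgre1, a macrophage receptor, had none in 120.6 kb. Gad1 of the neuronal list, whose REST site is printed above, had 3 at 1.60 and 1.46 by their medians. In the liver list Cps1, of ammonia metabolism, had 3 members at 0.242 and 0.253 by their medians and no promoter peak. The neuronal genes are long, with a median of 433.0 kb, and their 12 of 13 is near the 93.5% of all genes over 200 kb that held a member. Rbfox3, a splicing factor of neurons, had 24 members in 404.2 kb while the glutamate receptor gene Gria2 had none in 105.3 kb. The liver list stood above the 2.52 per 100 kb of all genes and the neuronal list below it, and the leukocyte list stood above it with Cx3cr1 and below it without. The 1.73 of the long neuronal genes was near the 1.87 per 100 kb of all genes over 200 kb.

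Of the 20 genes of the TGF-beta and activin pathway with at least 20 kb, 16 held a member, against 65.6% of all such genes, with 3.83 per 100 kb. Of those with at least 3 members the densest was the BMP effector Smad9, with 5 members (12.7 per 100 kb), of which the median had 66% of its sequence in repeats. The inhibitory Smad6 followed with 7 (10.9 per 100 kb), and their values had medians of 0.581 and 0.861. The BMP receptor gene Bmpr1a had none in 83.0 kb. Nuclear receptor genes stood at 2.53 per 100 kb (22 of 25 genes), the level of all genes. Among them Rara, a retinoic acid receptor, had 5 members. Their values were 0.957, 1.55, 1.81, 1.52 and 1.62 in replicate 1 and 0.906, 1.91, 2.34, 1.75 and 0.970 in replicate 2. Nr4a3 had 3, all in its first intron, and Hnf4g had none in 144.4 kb.

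**Figure D2:**
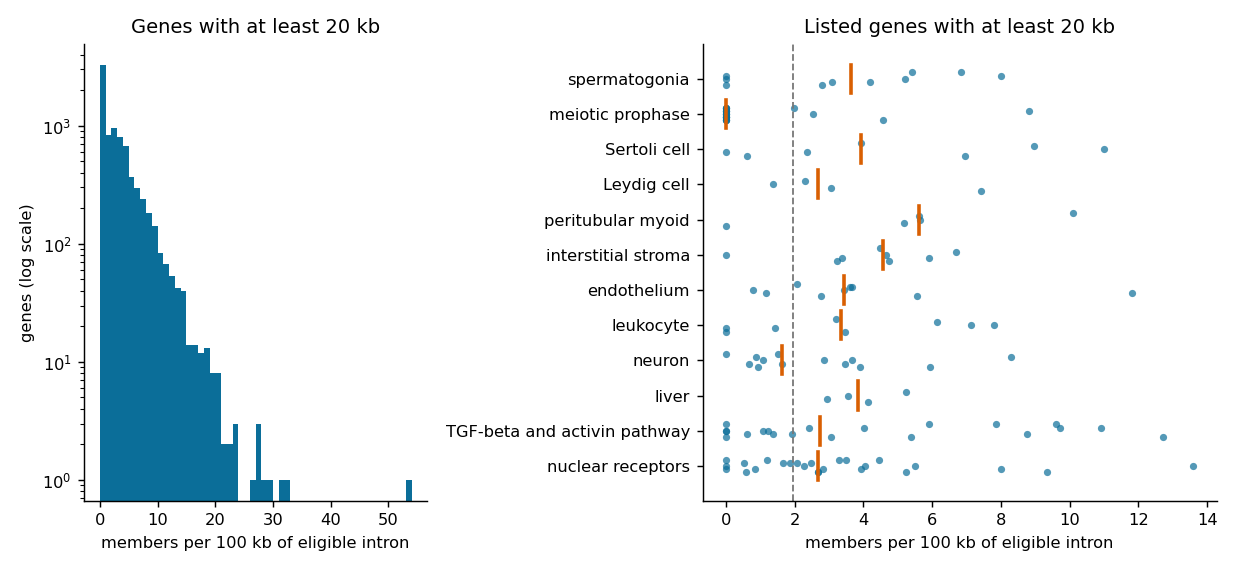
Left, number of protein-coding genes with at least 20 kb of eligible intron (log scale) by members per 100 kb of eligible intron; the gene at the far right is Sfi1, at 53.5. Right, members per 100 kb for each listed gene of at least 20 kb, with the list median in orange and the median of all such genes, 1.95, as the dashed line. The median of the meiotic prophase list is 0, as is that of all genes of 20 to 50 kb, and that of the peritubular myoid list is 5.63.

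First introns held members more densely than later introns, and the difference was largest close to the start. A member was counted here once for each gene that held it. In genes with at least 2 introns, first introns of the representative transcript had 6032 members in 195.8 Mb, or 30.8 per Mb. Later introns had 14064 in 608.2 Mb, or 23.1 per Mb, a ratio of 1.33. Of all 22769 pairs of member and gene, 2361 lay in no intron of the representative transcript and were left out. With the peaks of each library taken alone, shared or not, the ratio was 1.36 ± 0.053 (SD, n = 2). Density declined along the transcript, with 25.6 per Mb in introns of rank 2, 24.8 at rank 3, 23.5 at rank 4, 22.9 at rank 5 and 21.4 at rank 6 or later. The last intron of each transcript had 23.5. Intronic shared peaks at or above 3 were more one-sided, with 63 in first and 84 in later introns, a ratio of 2.33.

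The ratio was computed again by distance. Between 1 and 5 kb from the start of the transcript, first introns had 51.4 members per Mb and later introns 34.1, a ratio of 1.51. Between 5 and 10 kb the ratio was 1.16 and between 10 and 25 kb 1.15. It came to 1.03 at 25 to 50 kb, to 0.958 at 50 to 100 kb and to 1.06 beyond 100 kb. Among introns of similar length the ratio lay between 1.41 and 1.59 in all 6 length classes. Within genes that had at least 10 kb of each kind and a member, 2596 in number, the first intron was denser in 1242 (47.8%) and the later introns in 1354. The mean density went the other way. Over all 3311 genes with at least 10 kb of each kind it was 3.33 per 100 kb in first and 3.1 in later introns. With introns over 2500 bp from every start the ratio of the totals was 1.2, with the first intron of any transcript of a gene in place of the representative one 1.25, and without Gm20388, which alone gives 260 of the first-intron members, 1.3. In strength and footprints the members of first and later introns were close, with median values of 0.543 and 0.522 in replicate 1 and of 0.593 and 0.547 in replicate 2, and with a footprint in 87.3% and 88.3% in replicate 1 and in 94.5% and 95.3% in replicate 2.

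**Figure D3:**
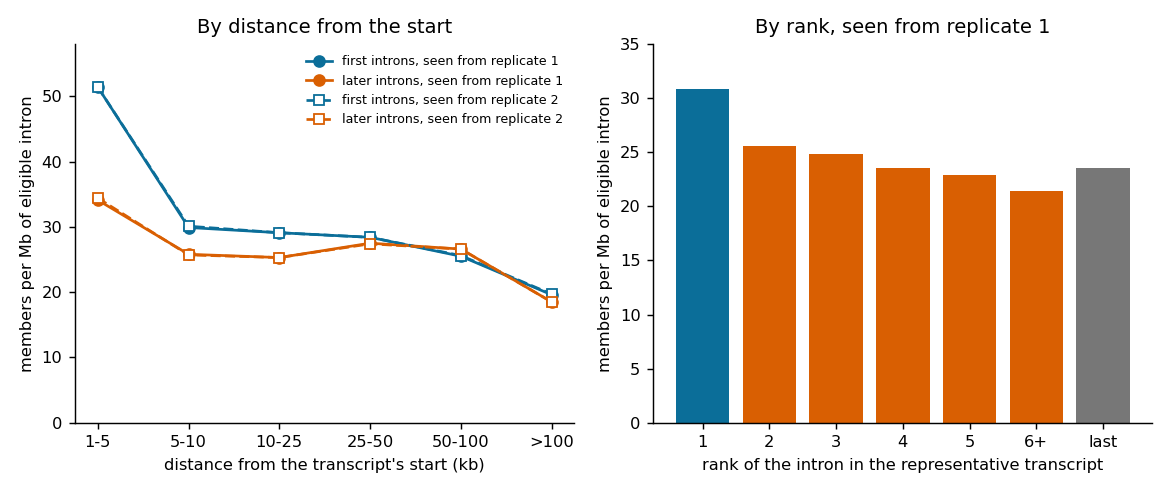
Left, members per Mb of eligible intron in first introns (blue) and later introns (orange) by distance from the start of the representative transcript, for members seen from each library; the lines are apart at 1 to 5 kb (51.4 and 34.1 per Mb) and meet beyond 25 kb. Right, members per Mb by the rank of the intron, seen from replicate 1, with the last intron of each transcript in grey; the bars stand at 30.8 per Mb for rank 1 and at 21.4 for rank 6 or later.

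Most members held a footprint, as did most shared peaks. In replicate 1 88.0% of members overlapped at least 1 footprint, against 87.3% of all shared peaks, and in replicate 2 95.1% did, against 93.7%, a mean of 91.5 ± 5.05% (SD, n = 2) for members. Footprints of both libraries that overlapped each other were found in 68.4% of members, against 70.3% of all shared peaks. These shares lie near those of all shared peaks. Members held 47059 footprints of replicate 1 and 59726 of replicate 2, that is 17.5% and 17.1% of all footprints, with a median of 2 and 3 per member, and 363 members had none in either library. Per kb of peak there were 11.3 and 13.4 footprints in members, against 9.87 and 11.3 in promoter peaks below 3 and 11.4 and 13.4 in peaks between genes.

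Footprint calls followed the signal value. In replicate 1 a footprint was found in 77.3% of members with a mean value below 0.5, in 94.8% from 0.5 to 1, in 99% from 1 to 2 and in 99.7% from 2 to 3. Footprints per kb in the same order were 8.95, 11.8, 14.6 and 17.1. At equal value promoter peaks had them less often, in 68.9%, 79.8%, 88.6% and 98.5%, and the order was the same in replicate 2. These files do not give the depth in reads, and a weak member with no footprint shows only that none was called at its depth.

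The 5 members with the most footprints of replicate 1 that overlapped one of replicate 2, with ties ordered by mean value, were of several kinds. A member in Vwa8 on chromosome 14, 460 bp wide with values of 1.16 and 1.83, held 9 footprints of replicate 1, each overlapping one of the 7 of replicate 2, in intron 38 of 44. Members in Tsc22d3, a gene induced by glucocorticoids, and in Zfhx3, a homeobox factor, also held 9 such footprints, over 480 and 1300 bp with GC contents of 78.1% and 77.8%. A member of 680 bp in Bicral and one of 240 bp in Rere, a nuclear co-regulator, held 8. That in Rere had 45.8% GC. The members in Tsc22d3 and Bicral lay upstream of the start of the representative transcript and in none of its introns. By all its footprints the Zfhx3 member had 19 in replicate 1 and 17 in replicate 2, the highest counts of any member.

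Of the 22 consensus sequences with at least 3 matches in the control windows of each library, that of CTCF had the highest ratio in footprints of members. Each footprint was extended by 5 bp on both sides for this search. The CTCF sequence was found in 3.00% of 45597 footprints of replicate 1 that lay fully inside members and in 2.38% of 57066 of replicate 2. In windows of equal width moved by 50 bp within the same peak the shares were 0.382% and 0.331%, a ratio of 7.53 ± 0.49 (SD, n = 2). NRF1, a factor of mitochondrial genes (GCGCANGCG), followed at 3.43 ± 0.014, then CRE, the element bound by CREB and the germ-cell factor CREM (TGACGTCA), at 2.94 ± 1.1 and RFX at 2.59 ± 0.57. Close to RFX and NR5A1 were the sequence of WT1 and EGR at 2.57 ± 0.071, that of YY1 (AAGATGGCG) at 2.26 ± 0.45 and that of SP/KLF (GGGGCGG) at 2.14 ± 0.099. NR5A1 stood at 2.18 ± 0.37, the short NFI sequence TTGGCA at 1.94 ± 0.085 and DMRT at 1.27 ± 0.25. REST matches numbered 24 in footprints and 2 in moved windows of replicate 1, and 26 and 1 in replicate 2, too few in the moved windows for a ratio. Footprints without the extension of 5 bp gave 60.0 for CTCF, 8.73 for NRF1, 3.31 for NR5A1, 2.99 for the short NFI sequence and 1.07 for DMRT, which stood at 0.75 in replicate 1 and 1.4 in replicate 2. Windows moved by 80 bp gave 3.39 for CTCF and 5.43 for NRF1, so the size of the ratios and their order depended on the windows chosen. With windows moved by 80 bp CTCF stood at 3.53 and 3.26 in replicates 1 and 2, NRF1 at 6.65 and 4.2, the sequence GCGTGGGNG of WT1 and EGR at 4.6 and 2.26, and RFX at 4.6 and 1.68. Footprints had 55.6% and 55.9% GC and moved windows 53.0% and 52.9%, and the part of base composition in the ratios was not tested.

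Other sequences were rarer in footprints than in the moved windows. The palindrome ACANNNTGT of androgen and glucocorticoid receptors stood at 0.702 ± 0.0049 and the forkhead sequence TGTTTAC at 0.441 ± 0.052, below the moved windows in both libraries. GATA was at 0.857 ± 0.15. A ratio below 1 says nothing of whether the factor binds there.

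In the 150 bp around the midpoint, members carried other sequences than promoter peaks did. The GC content of these windows was 52.6% in members, 62.9% in promoter peaks and 42.2% along the introns, and its part in the shares below was not tested. CTCF was found in 6.89% of members, against 1.63% of promoter peaks below 3 and 0.0783% of windows placed every 10 kb along the eligible introns. DMRT was found in 6.45%, against 1.36% and 2.43%, and NR5A1 in 3.24%, against 1.01% and 0.868%. The CAGCTG form of the E-box was found in 15.7%, against 11.5% and 5.91%, and the short NFI sequence in 14.8%, against 7.74% and 7.43%. By contrast the SP/KLF sequence GGGGCGG was found in 3.40% of members, against 18.5% of promoter peaks and 0.598% of intron windows. REST was found in 0.158% of members and in 0 of 88137 intron windows, where a count of 0 allows up to 0.0034%. GATA (8.31%) and the forkhead sequence (1.73%) were no more frequent in members than in intron windows (9.90% and 2.30%). Peaks between genes below 3 had 7.81% for CTCF, 5.74% for DMRT and 2.83% for NR5A1. The share of members over that of peaks between genes ran from 0.582 for YY1 to 1.14 for NR5A1 over the 23 sequences, with 0.619 for ETS, 0.698 for NRF1 and 0.768 for CRE. In all, 1343 members (6.08%) had a CTCF match in or within 5 bp of a footprint that both libraries shared. By the same measure 207 members had one for NR5A1, 194 for DMRT, 180 for GATA, 41 for RFX and 24 for REST.

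Matches also went with the place of a member in the gene. Of the members with a CTCF match that lay in an intron of the representative transcript, 18.2% were in the first intron, against 30.9% of all members. For SP/KLF that share was 40.2%, for CRE 44.4% and for the ETS sequence CCGGAAGT 38.8%, and for DMRT and NR5A1 it was 30.0% and 30.3%. The shares of CRE and ETS rest on few peaks, since 60 and 88 members in all had a match, against 1523 for CTCF. Members with a CTCF match held a footprint in 98.1% and 98.6% in the 2 libraries, against 88.0% and 95.1% of all members. Overlapping footprints of both libraries were found in 94.0% of them, against 68.4% of all members. They were also stronger, with median values of 0.817 and 0.649, against 0.527 and 0.566. Over all members such overlap rose with the mean value, from 46.7% below 0.5 to 80.3% from 0.5 to 1 and 95.9% from 1 to 2. The part of signal value in the contrast was not tested.

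**Figure D4:**
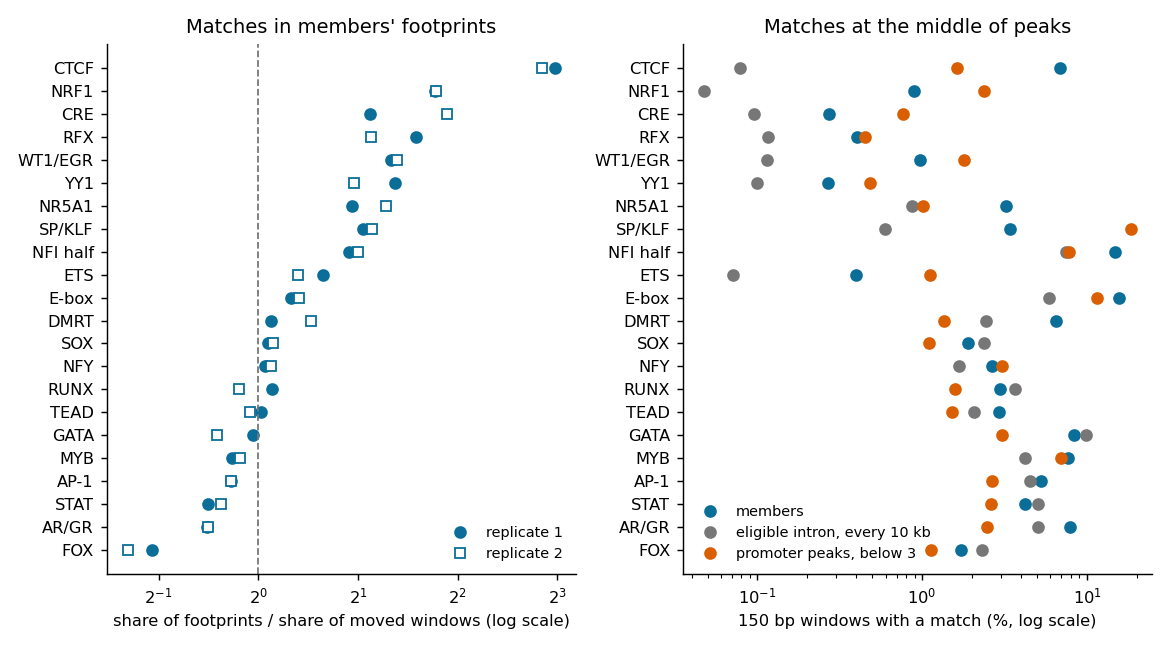
Left, share of footprints with a match over the share of moved windows for 22 consensus sequences in members (log2 axis), with filled circles for replicate 1 and open squares for replicate 2; CTCF is highest at 7.53 on average and the forkhead sequence lowest at 0.441. Right, percent of 150 bp windows with a match (log axis) in members, in eligible intron every 10 kb and in promoter peaks below 3; SP/KLF is at 3.40% in members and 18.5% at promoters, and CTCF at 6.89% and 1.63%.

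The libraries differed by the kind of site. Over all members the median ratio of replicate 2 to replicate 1 was 1.07, and 39.8% of members were higher in replicate 1. Among the 1523 members with a CTCF match the ratio was 0.788 and 86.1% were higher in replicate 1, with median values of 0.817 in replicate 1 and 0.649 in replicate 2. Among the 1426 members with a DMRT match the ratio was 1.24 and 17.0% were higher in replicate 1, with medians of 0.484 in replicate 1 and 0.608 in replicate 2. NR5A1 stood at 1.18, GATA at 1.17 and NRF1 at 0.988. REST, with a match in only 35 members, stood at 0.878. Peaks between genes, which hold no member, had the same split, with 0.794 for CTCF, 0.812 for REST, 1.25 for DMRT and 1.15 for NR5A1. The consensus sequences of this split were picked after the values were seen. Whether the cell makeup of the tissue or the digestion differed between the libraries was not tested.

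**Figure D5:**
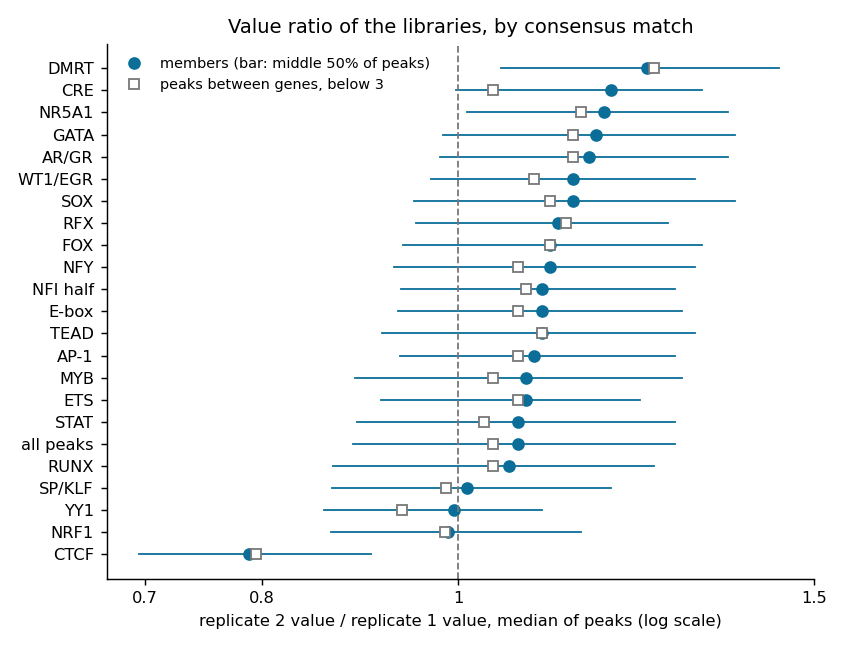
Median ratio of the signal value of replicate 2 to that of replicate 1 (log axis) over peaks with a match to each consensus sequence except REST, for members (blue, with the middle 50% of peaks as a bar) and for shared peaks between genes below 3 (open squares). CTCF lies at 0.788 in members and 0.794 between genes, and DMRT at 1.24 and 1.25, with all members at 1.07.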

How the data were processed

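Accessible DNA of testis was measured by DNase-seq in 2 libraries of 1 group. For each library the authors deposited 2 peak lists, a longer and a shorter one, with a signal value per peak. They also deposited footprint positions and the false discovery rate (a q-value) of the cut rate along the genome. Per the deposited text descriptions all are on mm10 and made from that library alone. The sources used here give no caller, aligner or read depth. In the deposited footprint files the p-value is 1 fixed threshold, so only footprint positions were used. The signal values cover peaks as the authors scaled them, and no interval can be computed from them. Peaks below the authors' limits are not listed, so a gene without a member has no listed peak there.

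Overlap, intron lengths and matches were computed in Python 3.11.15 with numpy 2.4.6, pandas 2.3.3 and pysam 0.24.0, on GRCm38.p6 and GENCODE vM21. Eligible intron was sequence inside a protein-coding gene, in no exon of any annotated gene, and over 1000 bp from every start. The representative transcript was the APPRIS principal one, the longest where several tied. Genes were named by density (12, with at least 20 kb and 5 members), by number (6), and per list by density (2 with at least 3 members) and, with no member, first by alphabet. Results for some genes chosen this way are not reported here. The 227 listed genes, the 23 consensus sequences and the members were chosen with earlier results of these data known. The scripts were tested on simulated peaks, footprints and matches. Alternatives varied the peak list, overlap, ceiling, exons, distance, chromosomes, libraries, transcript and windows.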

Additional observations from a re-analysis of the deposited data

How the results depend on the processing

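With the shorter peak lists the number of members was 11764 instead of 22103. With each library taken alone it was 27390 to 32941, and hosts numbered 7979 to 8642 instead of 7232. The ratio of first to later introns was then 1.32 to 1.4 instead of 1.33. The share with a footprint was 83.4% in replicate 1 alone, against 88.0% of members, and 88.8% in replicate 2 alone, against 95.1%. For members the mean of the libraries was 91.5%. The ratio of first to later introns was 1.25 with the first intron of any transcript and 1.2 with introns over 2500 bp from every start. The cause of these changes was not tested. The other alternatives to these 4 results stayed within 1.5 times of the counts or within 1 SD of the libraries. As means of the libraries the ratios of CTCF, NRF1, NR5A1, the short NFI sequence and DMRT stayed above 1, but DMRT without the extension was at 0.75 in replicate 1. The alternatives without Gm20388, and without the gene of each list with the most members, were chosen after seeing the data. No paired analysis was possible because there is only 1 group.

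Both libraries carry 1 donor label, and the spread between animals was not measured. Read depth is unknown, and how well reads of the castaneus parent map to mm10 was not tested. Counts per gene follow the gene models, some of which run over several genes.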

Other observations

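The X chromosome, present once in males, held few members. Its introns had 456 members, or 11.4 per Mb, against a median of 25.1 per Mb over the autosomes, a ratio of 0.454. The highest autosome was chromosome 11, at 32.2. The X members were also weaker, with median values of 0.315 and 0.336 in the 2 libraries, against 0.527 and 0.566 for all members. The Y chromosome held 3.

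Most members could be placed uniquely by sequence. In 91.1% of the 22059 members long enough to measure, every 31-base word occurred once among chromosomes 1 to 19, X and Y. Of the 214 members below 50%, 13 were counted for Mid1, a gene of the X chromosome that reaches the region paired with the Y, 5 for Tmem267, and 4 each for Sfi1 and Gm20388. These genes were picked after the values were seen.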
